A study of Mus musculus with 2 samples.

Results

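The 10 genes of TGF beta and activin signalling described here were followed across the cells of mouse tumours: the ligand genes Tgfb1, Tgfb2, Tgfb3 and Inhba, the receptor genes Tgfbr1 and Tgfbr2, the pathway inhibitor Smad7, and the target genes Id1, Id2 and Id3. They were chosen by symbol from the 31054 features counted in both libraries. All 10 were found. Tgfb2 gave too few molecules to be measured in any cell class, and the other 9 were measured in at least 1.

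TGF beta ligands are made as latent dimers bound to their own propeptide, and integrins, proteases or thrombospondin release the active form. The free ligand joins the type II receptor TGFBR2 to the type I receptor TGFBR1, whose kinase phosphorylates SMAD2 and SMAD3, and these enter the nucleus with SMAD4. Activin A, a dimer of the inhibin beta A chain made from Inhba, uses other receptors but the same SMADs. Bone morphogenetic proteins act through SMAD1 and SMAD5 and induce the Id genes, whose products bind E proteins and keep them off DNA. Tumour cells, macrophages and lymphocytes can all make and answer TGF beta.

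The labels describe cells sorted by flow cytometry for the red fluorescent protein mCherry from pooled tumours of young mice, aged 4 weeks, and adult mice, aged 24 weeks. Both samples carry the label d7, whose meaning is not explained, and each age is a single droplet library of the 10x Genomics 3' v2 chemistry, with 10000 cells as the target. The tumour, the mouse strain and the origin of the mCherry gene are not named in the labels, and both ages were sorted on the same marker. Since neither age has a second library, nothing was tested, all intervals are at 95% for counting error alone, and pool, sort and library cannot be told apart from age.

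After filtering, 7090 of 7558 young and 5774 of 6279 adult barcodes were kept, from libraries of 84862471 and 70988070 unique molecular identifiers (UMIs, each marking 1 captured RNA molecule). The 4 classes were set by rule, and cells that met more than 1 rule were set aside (46 young and 36 adult cells). The mCherry class, with at least 10 UMIs of the mCherry construct, held 421 young and 475 adult cells, with median depths of 32050 and 31440 UMIs. The Csf1r class, with a UMI of the macrophage growth factor receptor gene Csf1r and fewer than 2 mCherry UMIs, held 5346 and 4230 cells, with medians of 10320 and 10090. The neutrophil class, with at least 1% of UMIs from S100a8 and S100a9, held 101 and 176 cells, with medians of 2127 and 1792. The Cd3 class, with at least 2 UMIs of Cd3d, Cd3e and Cd3g, held 40 and 105 cells, with medians of 5585 and 4223. No rule took 1136 young and 752 adult cells. At the limits, 6 young and 6 adult cells had 9 mCherry UMIs against 7 and 4 with 10, while 74 young and 105 adult cells had a single Cd3 UMI against 5 and 9 with 2. From 0.5 to 1% of UMIs from S100a8 and S100a9 there were 21 and 24 cells, and from 1 to 2% there were 31 and 36. The 2 libraries shared 111 barcodes, 97 of them among the kept cells of each.

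The marker lists went with the class rules, with macrophage RNA present in every class. Levels are given as UMIs per 1000000 UMIs of the class (CPM). The 10 macrophage markers summed to 9985 CPM in the young and 8942 CPM in the adult Csf1r class, 754.6 and 504.3 CPM in the mCherry class, 1057 and 1022 CPM in the neutrophil class, and 262 and 1103 CPM in the Cd3 class. Csf1r itself was at 0 in young neutrophil-class cells, and Csf1r, Adgre1 and Ms4a7 were at 0 in young Cd3-class cells. The 10 T cell markers summed to 7106 and 6892 CPM in the Cd3 class and to at most 20.15 CPM in the other 3 classes. The 5 natural killer cell markers summed to 2816 CPM in the young and 349 CPM in the adult Cd3 class. Gzma alone held 2592 and 311 CPM of these sums. The T cell genes Cd8a and Trdc were at 538 and 191 CPM and at 369 and 1042 CPM, so the 2 Cd3 classes differed in makeup. The part of macrophage RNA in the results was not tested, except where a value after subtraction is given.

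Inhba differed in level between all 4 classes, and between the libraries in opposite directions in 2 of them, so the 250 bases before its RefSeq start are shown. They lie on chromosome 13 of GRCm38.p6 (chr13:16011601-16011850, plus strand), upstream of the gene (chr13:16011851-16031621).

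Inhba: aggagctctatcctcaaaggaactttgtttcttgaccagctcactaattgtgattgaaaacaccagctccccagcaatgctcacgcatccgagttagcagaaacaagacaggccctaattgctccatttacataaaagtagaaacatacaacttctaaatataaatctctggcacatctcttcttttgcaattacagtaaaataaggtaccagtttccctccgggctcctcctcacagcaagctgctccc

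For this, 5 motifs were searched on both strands: the SMAD box CAGAC, its palindrome GTCTAGAC, the GC-rich SMAD box GGCGCC, the AP-1 site TGANTCA and the cyclic AMP element TGACGTCA. None of these letters occurred in the Inhba window. Among all 32851 RefSeq windows of 250 bases, 42.2% held CAGAC, 0.167% GTCTAGAC, 9.59% GGCGCC, 6.75% TGANTCA and 1.55% TGACGTCA. RefSeq windows were found for 7 of the 10 genes, and Tgfb3, Smad7 and Id1 had none. The Id genes are known SMAD targets, so the matches before Id2 and Id3 are shown in capitals with 10 bases on each side. In the annotation GENCODE M21 the Id2 match falls in an intron and both Id3 matches in a 5′ untranslated region of longer transcripts of the same genes.

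Id2 match 1 (chr12:25096308-25096333, minus strand, 231 bases before the start): aggccccctgGGCGCCcagcgcacac

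Id3 match 1 (chr4:136143645-136143669, plus strand, 167 bases before the start): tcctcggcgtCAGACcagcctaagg

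Id3 match 2 (chr4:136143744-136143768, plus strand, 68 bases before the start, CAGAC on the other strand): acccttggcgGTCTGttttgaataa

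CAGAC also occurred in the windows of Tgfb2 and Tgfbr2 and in 1 of the 2 windows of Tgfbr1, whose other window held GGCGCC, and no motif occurred in the Tgfb1 window. With CAGAC in 42.2% of all windows, these matches describe the letters and no binding.

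A gene was called higher or lower between the libraries when its CPM differed by 1.5-fold or more with an interval that excluded 1, counting the genes that reached 10 CPM in either library of the class. In the Csf1r class, 1 of 9 measured genes was higher in the young library (Tgfb3) and 2 were lower (Tgfb1 and Id1), against a background of 3.39% of 6484 genes higher and 2.5% lower. In the mCherry class 1 of 6 was lower (Id3) and 0 were higher, against 0.933% of 6644 genes lower and 4.27% higher. In the neutrophil class 1 of 7 was higher (Inhba) and 1 lower (Id1), against 5.56% and 3.03% of 5445 genes. In the Cd3 class 1 of 8 was lower (Inhba) and 0 were higher, against 6.78% and 4.22% of 7822 genes. With so few genes these counts describe single genes, and no gene was called in all 4 classes. The median log2 ratio of young over adult, with 5 CPM added to both, was -0.18 over the 9 genes of the Csf1r class and 0.04 over all genes, and -0.25 over the 6 of the mCherry class and 0.03 over all genes. It was 0.49 over the 7 of the neutrophil class against 0.11, and -0.08 over the 8 of the Cd3 class against -0.09.

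**Figure D1:**
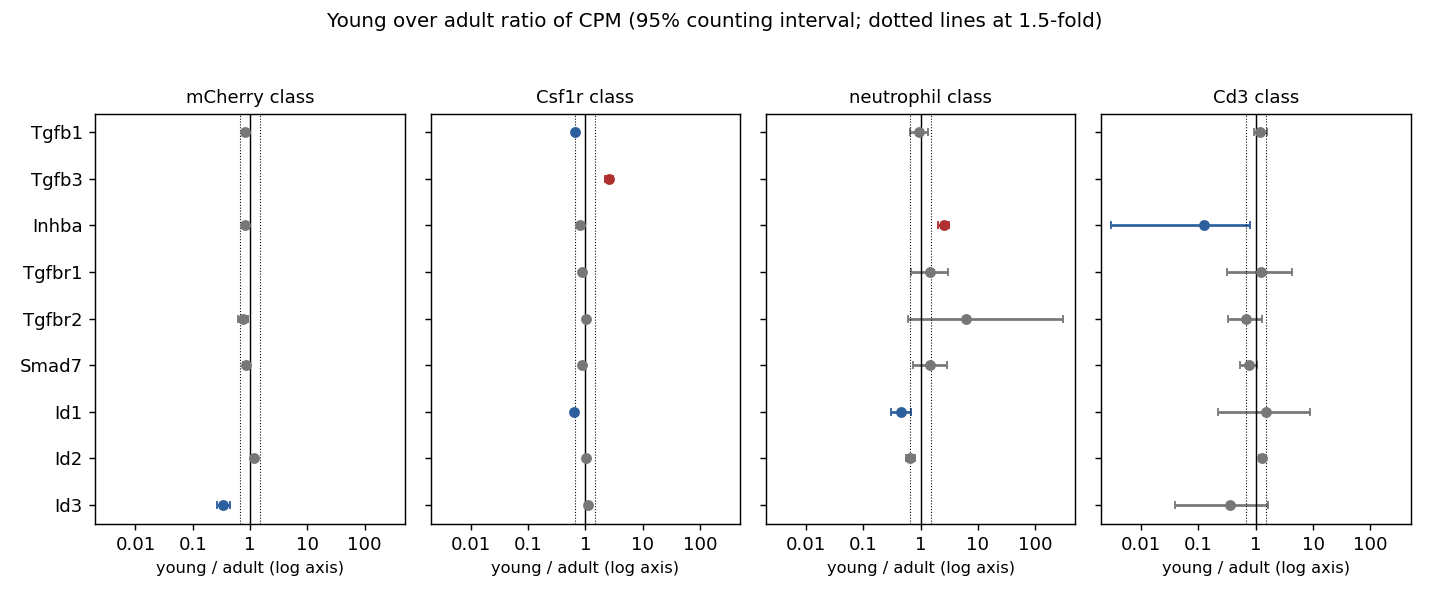
The ratio of young over adult CPM on a log axis for each measured gene in each class, with 95% counting intervals and dotted lines at 1.5-fold. Red points were called higher and blue points lower in the young library, and the only points to the right of the dotted lines with an interval above 1 are Tgfb3 in the Csf1r class at 2.59 and Inhba in the neutrophil class at 2.53.

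Tgfb1 (chr7:25687002-25705077), the TGF beta ligand gene of most immune cells, was lower in the mCherry class than in the other 3 classes. The mCherry class held 55.9 CPM in the young (952 UMIs) and 67.3 CPM in the adult library (1146 UMIs). The Csf1r class held 296 CPM (17359 UMIs) and 445 CPM (20700 UMIs), the neutrophil class 230.0 CPM (52 UMIs) and 247.5 CPM (86 UMIs), and the Cd3 class 359 CPM (104 UMIs) and 299 CPM (172 UMIs). In the young library the intervals of the Csf1r class (292 to 301) and the Cd3 class (293 to 435) overlapped, and so did those of the neutrophil class (172 to 302) and the Csf1r class. In the adult library the Csf1r class (439 to 451) stood above the Cd3 class (256 to 347), whose interval overlapped that of the neutrophil class (198 to 306).

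Within the Csf1r class Tgfb1 was 1.501-fold lower in the young library (1.47 to 1.53), which lies at the limit of the call. The call was lost under 4 of 11 alternatives (cells of several rules kept, at least 3 Csf1r UMIs, equal weight for 4 bands of C1q share, and no barcodes found in both libraries), and the ratio of young over adult stayed between 0.633 and 0.705 in all 11. At a fixed depth of 2000 UMIs per cell, 42.2% of young and 53.8% of adult Csf1r-class cells had a Tgfb1 UMI, against 12.7% and 11.3% in the mCherry class. Thinning left out cells below 2000 UMIs in every class, here 112 and 53 Csf1r-class cells and 5 and 7 mCherry-class cells. Before thinning, with medians of 10320 and 10090 UMIs against 32050 and 31440, the shares were 86.6% and 91.8% against 67.7% and 67.4%. The mCherry class held 5.30-fold less than the Csf1r class in the young (4.96 to 5.66) and 6.61-fold less in the adult library (6.22 to 7.02). Subtraction of macrophage RNA, scaled by the median of 9 macrophage markers at 7.64% and 5.19% of the Csf1r-class profile, left 36.0 and 46.6 CPM in the mCherry class. In the other 3 classes the ratio between the libraries was within 1.5-fold.

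**Figure D2:**
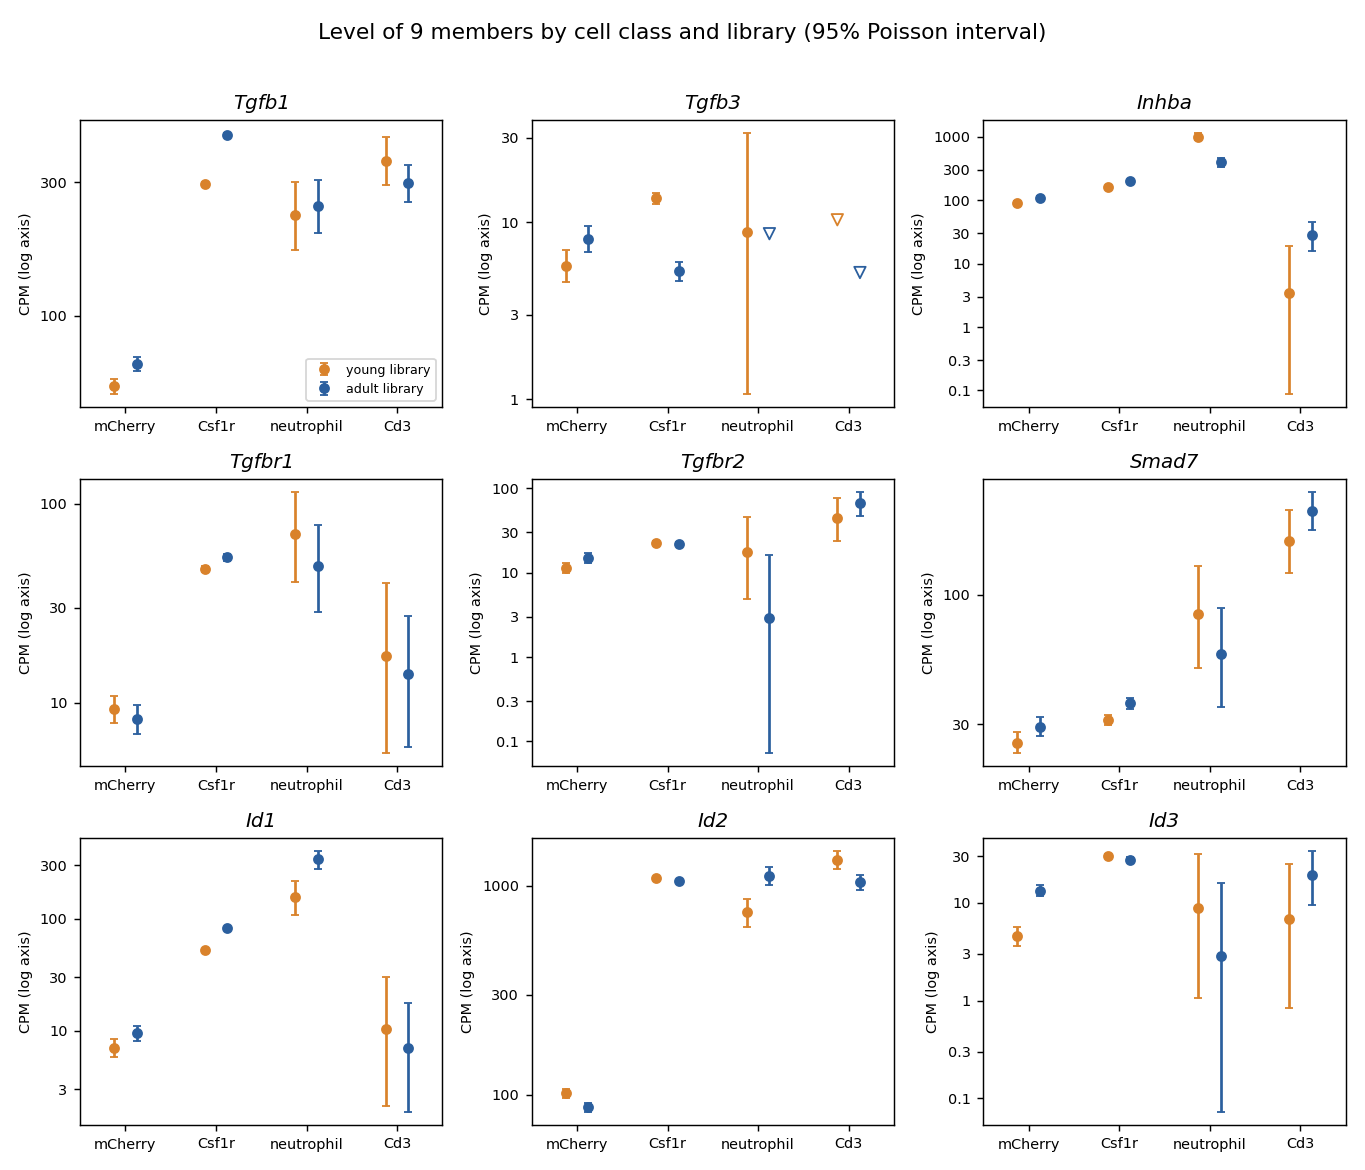
Levels of the 9 measured genes in CPM on log axes for each cell class, young in orange and adult in blue, with exact Poisson intervals. Open triangles mark the level that a count of 0 allows (3 UMIs), as for Tgfb3 in the Cd3 class, and the Csf1r class sits above the mCherry class in both libraries for every gene shown except Tgfb3 in the adult library.

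Tgfb2 (chr1:186622792-186705989) was represented by 2 young and 6 adult UMIs in the mCherry class, 0 young and 2 adult UMIs in the Csf1r class, and 0 in the neutrophil and Cd3 classes. Its level could not be compared. The count of 0 in the Cd3 class allows up to 10.4 CPM in the young and 5.21 CPM in the adult library.

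Tgfb3 (chr12:86056745-86079041), a ligand known for its part in palate fusion and wound repair, had the largest ratio between the libraries of the 9 genes measured in the Csf1r class. The young Csf1r class held 13.7 CPM (12.7 to 14.7; 801 UMIs) and the adult one 5.28 CPM (4.64 to 5.99; 246 UMIs), 2.59-fold higher in the young library (2.24 to 2.997). The call held under 11 of 11 alternatives (2.39 to 2.90). A Tgfb3 UMI was found in 10.7% of young and 4.47% of adult Csf1r-class cells, and after thinning to 2000 UMIs in 2.43% and 0.886%, against 0 of 40 young and 0 of 105 adult Cd3-class cells. The mCherry class lay the other way, with 5.70 CPM in the young (97 UMIs) and 8.11 CPM in the adult library (138 UMIs), under the 10 CPM needed for a call. The mCherry class therefore had 0.417 of the Csf1r-class level in the young and 1.53 times that level in the adult library, with neither interval reaching 1 (0.334 to 0.515 and 1.24 to 1.90). Neutrophil-class cells gave 2 young UMIs and 0 adult UMIs.

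The cells that supplied Tgfb3 molecules differed with this. Csf1r-class cells held 82.4% of all Tgfb3 UMIs of the young library and 61.2% of those of the adult library, while the mCherry class held 9.98% and 34.3%. Of all UMIs of kept cells, the Csf1r class had 69.8% and 66.7% and the mCherry class 20.3% and 24.4%. The sort sets the class sizes, so these shares describe the sorted cells and not the tumour.

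**Figure D3:**
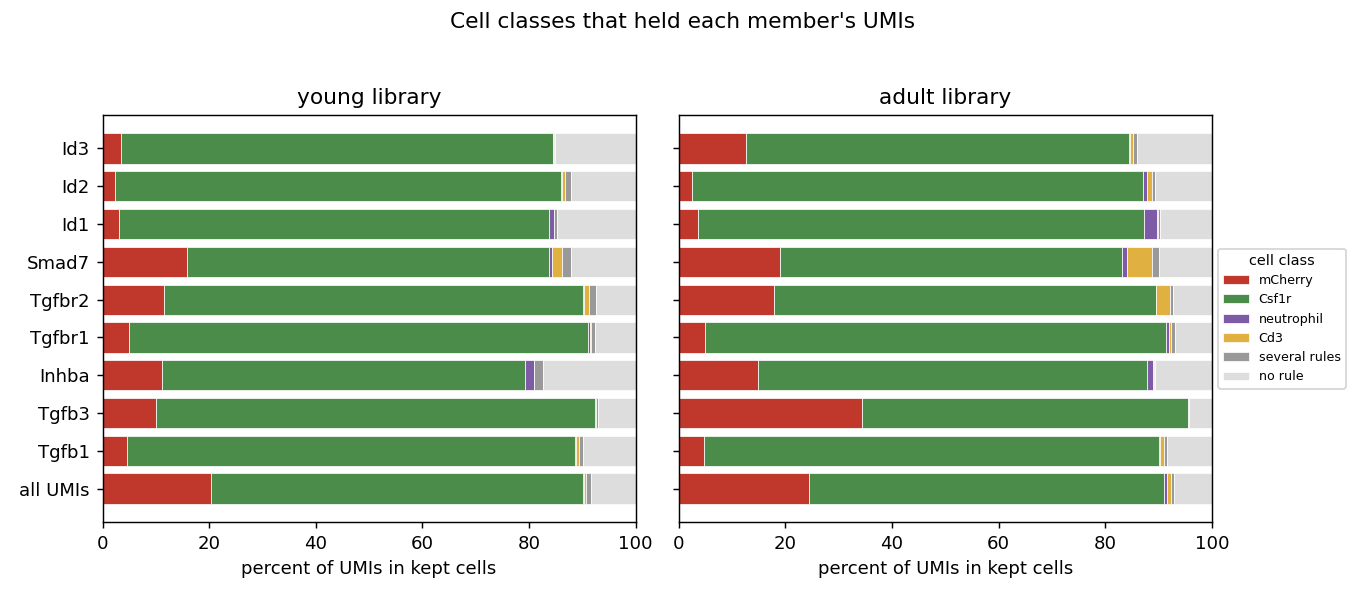
The percent of each gene's UMIs that came from each cell class, young library on the left and adult on the right, with the class shares of all UMIs in the bottom bar. The red mCherry part of the Tgfb3 bar is 9.98% in the young and 34.3% in the adult library, while the mCherry part of the Tgfb1 bar is 4.61% and 4.72%.

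Inhba encodes the beta A chain of inhibins and activins. Neutrophil-class cells held the highest Inhba level of the 4 classes in both libraries, and Cd3-class cells the lowest. Young neutrophil-class cells held 999.5 CPM (873 to 1139; 226 UMIs) and adult ones 394 CPM (331 to 466; 137 UMIs). The Csf1r class held 162 CPM (9489 UMIs) and 198 CPM (9215 UMIs), the mCherry class 90.5 CPM (1541 UMIs) and 109 CPM (1863 UMIs), and the Cd3 class 3.45 CPM (1 UMI) and 27.8 CPM (16 UMIs). No intervals of neighbouring classes overlapped in either library. The mCherry class held 0.559 and 0.553 of the Csf1r-class level, and 0.462 and 0.377 of it with each cell given the same weight, which would pass the limit for a call. The neutrophil class was 6.17-fold above the Csf1r class in the young (5.39 to 7.04) and 1.99-fold above it in the adult library (1.67 to 2.36), just under the 2-fold set for a call between classes. With each cell given the same weight the young value was 3.72, and with at least 3 Csf1r UMIs the adult value reached 2.21.

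In the neutrophil class Inhba was 2.53-fold higher in the young library (2.04 to 3.16), and the call held under 10 of 10 alternatives (1.96 to 3.32). Many of the UMIs lay in few cells: 12 young and 8 adult cells had at least 5 Inhba UMIs, the 3 highest young cells held 37, 35 and 25 UMIs, and the 3 highest adult cells held 18, 13 and 12. A UMI was found in 35.6% of 101 young and 22.7% of 176 adult cells. Thinning left out the 43 young and 103 adult cells below 2000 UMIs. In the 58 and 73 deeper cells that remained, the shares were 43.1% (30.2 to 56.8) and 24.7% (15.3 to 36.1). After thinning the Csf1r class had 16.4% and 19.6% and the Cd3 class 2.94% and 0%. Macrophage markers other than Csf1r stood at a median of 7.93% of their Csf1r-class level in the young neutrophil class (1.77 to 78.3%). In the adult one the median was 12.7% (5.09 to 60.6%), with Cd68 the highest marker in both. The part of macrophage RNA or macrophage-like cells in the Inhba level of this class was not tested.

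In the Csf1r and mCherry classes Inhba was a little lower in the young library, 1.22-fold (1.19 to 1.26) and 1.21-fold (1.13 to 1.29), and was not called. Cells that met no rule went the other way, with 342 CPM (328 to 356; 2421 UMIs) in the young and 272.5 CPM (258 to 287; 1349 UMIs) in the adult library. They held 17.4% and 10.7% of all Inhba UMIs, and their 10 macrophage markers summed to 7734 and 5870 CPM. The direction among macrophages may thus depend on the Csf1r rule, which was not tested. The call in the Cd3 class rested on 1 young and 16 adult UMIs, a ratio of 0.124 (0.00296 to 0.799). It turned to 6.26 when cells that met several rules were kept and was lost without the deepest 6% of cells (0.282). Macrophage markers other than Csf1r were at a median of 1.58% of their Csf1r-class level in the young Cd3 class (0 to 5.04%) and 11.04% in the adult one (4.03 to 19.4%), and their part in this ratio was not tested.

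Inhba was concentrated in a minority of macrophage-class cells. The top 10% of Csf1r-class cells held 72.9% of the Inhba UMIs of that class in the young and 68.7% in the adult library. Cells with at least 5 Inhba UMIs, a limit chosen after the data were seen, numbered 598 and 608. Their median depth was close to that of cells without Inhba (10530 against 10210 UMIs in the young, 9988 against 10190 in the adult library), and their median C1q share of UMIs was lower, 0.0558% against 0.491% and 0.0325% against 0.279%.

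The 10 genes furthest above their level in cells without Inhba in the young library were Cxcl3, Ccl24, Ptges, Cd200, Mmp12, Sdc1, Slpi, Gpnmb, Gm15056 and Hcar2. The neutrophil-attracting chemokine gene Cxcl3 was 6.29-fold higher than in cells without Inhba in the young and 9.34-fold higher in the adult library, and Mmp12, a macrophage elastase, was 5.59-fold and 6.10-fold higher. Ptges, a prostaglandin E synthase, was 8.42-fold and 5.81-fold higher, and Slpi, a secreted protease inhibitor, 4.33-fold and 4.23-fold. Ccl24, an eosinophil-attracting chemokine gene, was 7.13-fold and 3.23-fold higher, and Cd200, which encodes a surface glycoprotein, 9.41-fold and 2.52-fold. Ccl8, a monocyte chemokine, stood at 0.331 and 0.356 of the level in cells without Inhba, and C1qa at 0.406 and 0.427. The 10 genes with the largest difference in each direction in the young library, which chose them, all differed in the same direction in the adult library. Those under 2-fold there were Gpnmb, 1.46-fold higher, and Ch25h and Gatm, at 0.556 and 0.752 of the level in cells without Inhba. Of the other signalling genes, Tgfb1 was 1.22-fold and 1.31-fold higher in the Inhba-high cells and Tgfbr2 stood at 0.667 and 0.495.

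Along the C1q range of the Csf1r class, Inhba and Tgfb3 ran in opposite directions. The range was cut into 4 bands of equal size over both libraries by the share of UMIs from C1qa, C1qb and C1qc, which mark mature tissue macrophages, and is a range and not a cell type. Between 208 and 645 cells lay within 10% of each limit. The lowest band held 21.0% of young and 30.02% of adult Csf1r-class cells, and the highest 27.9% and 21.3%. Inhba was lower at the C1q-high end, with 242, 279, 135.5 and 52.9 CPM over the 4 bands of the young library and 278, 310.4, 157 and 66.0 CPM in the adult one. The lowest band was 4.58-fold above the highest in the young (4.25 to 4.93) and 4.21-fold in the adult library (3.90 to 4.55). Tgfb3 was higher at the C1q-high end, with 9.39, 7.70, 16.7 and 17.9 CPM in the young and 2.68, 2.60, 5.83 and 9.61 CPM in the adult library, 1.91-fold (1.53 to 2.40) and 3.59-fold (2.43 to 5.43) above the lowest band. Within the bands Tgfb3 was 3.51, 2.96, 2.86 and 1.86 times as high in the young as in the adult library.

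**Figure D4:**
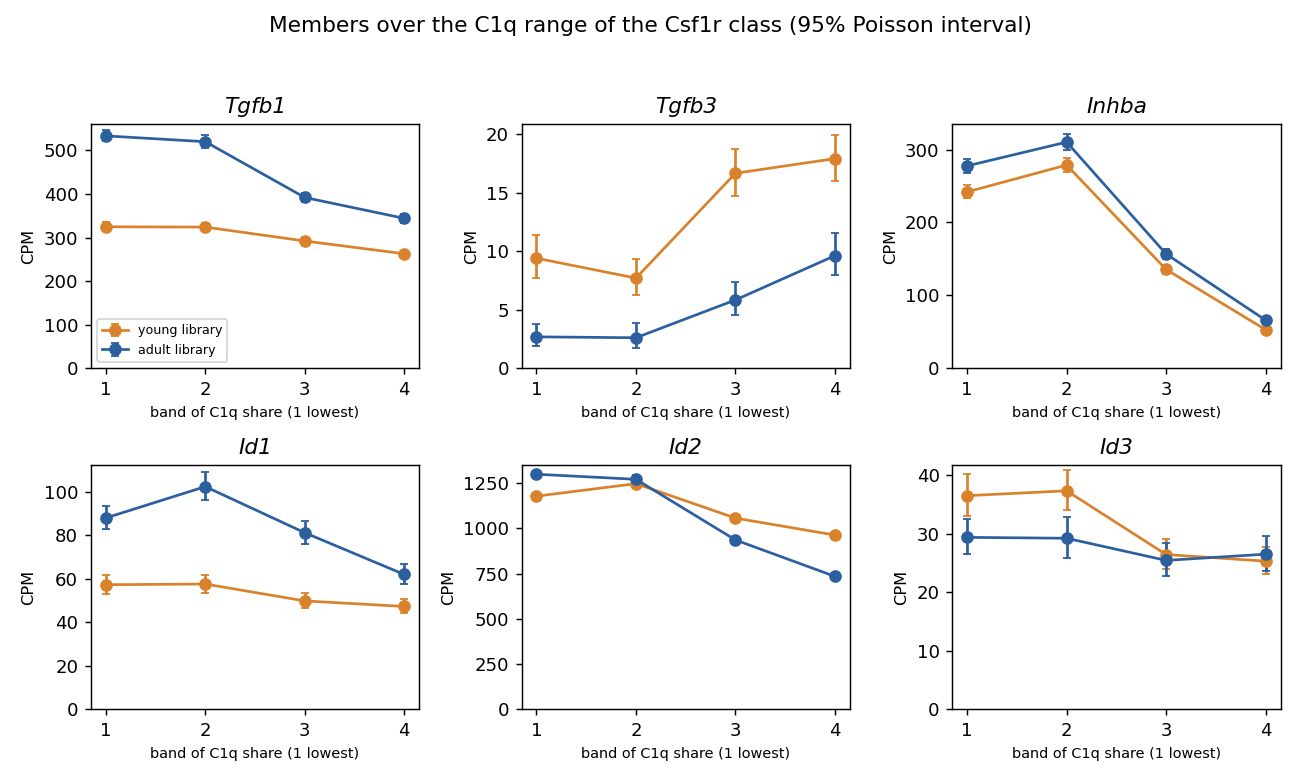
CPM of 6 genes over the 4 bands of the C1q share of Csf1r-class cells, from lowest to highest, with exact Poisson intervals and axes that start at 0. Inhba drops from 242 to 52.9 CPM in the young and from 278 to 66.0 CPM in the adult library between the first and the last band, and the Tgfb3 points of the young library lie above those of the adult library in all 4.

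Tgfb1 differed most between the libraries at the C1q-low end. It was at 325, 324, 292 and 263 CPM over the young bands and at 533, 520.1, 392.0 and 344 CPM over the adult ones, so that young over adult went from 0.609 and 0.623 in the lower bands to 0.745 and 0.763 in the upper ones. A split at the median share of Ly6c2 and Plac8, genes of inflammatory monocytes, gave the same picture. In the upper part Tgfb1 was at 313 CPM in the young and 599 CPM in the adult library (0.522), and in the lower part at 278 and 349 CPM (0.797). For Inhba the values were 167 and 247 CPM in the upper part (0.678) and 156 and 168 CPM in the lower part (0.931). No test of these differences between parts was possible with 1 library per age.

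Among the receptors, Tgfbr1 was highest in myeloid cells and Tgfbr2 in T cells. Tgfbr1 (chr4:47353222-47414931), the type I receptor kinase, was at 47.1 CPM in the young and 53.9 CPM in the adult Csf1r class (2758 and 2510 UMIs) and at 70.8 CPM (16 UMIs) and 48.9 CPM (17 UMIs) in the neutrophil class, with overlapping intervals. The Cd3 class held 17.3 CPM (5 UMIs) and 13.9 CPM (8 UMIs), and the mCherry class 9.28 CPM (158 UMIs) and 8.28 CPM (141 UMIs). Tgfbr1 was 5.07-fold lower in the mCherry class than in the Csf1r class in the young (4.32 to 5.99) and 6.51-fold lower in the adult library (5.49 to 7.77). It was also lower in the Cd3 class, 2.73-fold (1.17 to 8.41) and 3.88-fold (1.97 to 8.996). In the Csf1r class it was 1.15-fold lower in the young than in the adult library (1.08 to 1.21), with the largest gap in the highest C1q band, at 45.4 and 69.3 CPM (0.656).

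Tgfbr2 (chr9:116084293-116175360), the type II receptor that binds the ligand, was at 44.9 CPM (13 UMIs) and 66.0 CPM (38 UMIs) in the Cd3 class and at 22.5 CPM and 21.9 CPM in the Csf1r class (1319 and 1022 UMIs). The Cd3 class was 1.99-fold above the Csf1r class in the young (1.06 to 3.42) and 3.01-fold above it in the adult library (2.12 to 4.16), short of a call in the young library. With each cell given the same weight the values were 2.38 and 5.44. The mCherry class held 11.3 CPM (193 UMIs) and 14.9 CPM (254 UMIs), and the neutrophil class 4 UMIs and 1 UMI. Between the libraries the ratio in the Csf1r class was 1.03 (0.944 to 1.11), and in the Cd3 class 0.680 with an interval that spanned 1 (0.332 to 1.31).

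Smad7, an inhibitor that blocks the type I receptor and is itself induced by the pathway (chromosome 18, 75367529 to 75395935), was highest in the Cd3 class. Cd3-class cells held 166 CPM (122 to 220; 48 UMIs) in the young and 219 CPM (182 to 261; 126 UMIs) in the adult library. The neutrophil class held 84.0 CPM (19 UMIs) and 57.6 CPM (20 UMIs), the Csf1r class 31.3 CPM (1834 UMIs) and 36.4 CPM (1696 UMIs), and the mCherry class 25.3 CPM (431 UMIs) and 29.4 CPM (500 UMIs). The Cd3 class was 5.29-fold above the Csf1r class in the young (3.89 to 7.05) and 6.01-fold above it in the adult library (4.97 to 7.20), and 3.11-fold above it in the young one with cells of several rules kept. After thinning to 2000 UMIs, 29.4% of young and 30.2% of adult Cd3-class cells had a Smad7 UMI, against 6.38% and 7.78% of Csf1r-class cells. Between the libraries the Cd3-class ratio was 0.757 and its interval spanned 1 (0.531 to 1.06), and the Csf1r-class and mCherry-class ratios were 0.859 and 0.862. Cd3-class cells with a UMI of the CD8 genes Cd8a and Cd8b1 (20 young and 24 adult cells) held 145 and 194 CPM, and those without (20 and 81 cells) held 193 and 227 CPM.

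Id1 (chr2:152736251-152737410), an E protein antagonist induced by bone morphogenetic proteins and TGF beta, was highest in neutrophil-class cells and lower in the young than in the adult Csf1r class. The neutrophil class held 155 CPM (108 to 215; 35 UMIs) and 337 CPM (278.5 to 404; 117 UMIs), the Csf1r class 52.2 CPM (3057 UMIs) and 82.4 CPM (3836 UMIs), the mCherry class 7.05 CPM (120 UMIs) and 9.46 CPM (161 UMIs), and the Cd3 class 10.35 CPM (3 UMIs) and 6.95 CPM (4 UMIs). By CPM the neutrophil class was 2.97-fold above the Csf1r class in the young (2.06 to 4.14) and 4.09-fold above it in the adult library (3.37 to 4.91). In the adult neutrophil class 4 cells held 67 of the 117 UMIs. After thinning to 2000 UMIs, 20.7% (11.2 to 33.4) of young neutrophil-class cells had an Id1 UMI against 8.54% (7.80 to 9.33) of Csf1r-class cells. In the adult library the shares were 15.1% (7.77 to 25.4) and 12.8% (11.8 to 13.8), with overlapping intervals. These shares leave out the neutrophil-class cells below 2000 UMIs, 43 of 101 young and 103 of 176 adult cells. The mCherry and Cd3 classes were not separable from each other.

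In the Csf1r class Id1 was 1.58-fold lower in the young library (1.51 to 1.66), called under 11 of 11 alternatives, with young over adult from 0.561 to 0.662. Cells with at least 5 Id1 UMIs numbered 126 in the young and 205 in the adult library. An Id1 UMI was found in 28.9% and 34.7% of cells, and after thinning in 8.54% and 12.8%. Id1 was lower in the young library in each C1q band (0.651, 0.563, 0.614 and 0.763). In the neutrophil class it was 2.18-fold lower in the young library (1.48 to 3.27), but the share of cells with a UMI was alike, 22.8% and 22.2%. The 3 highest adult cells held 25, 21 and 14 UMIs, and thinning to 2000 UMIs turned the ratio to 1.47. That value compared 14 young with 12 adult UMIs in 58 and 73 cells, without the cells below 2000 UMIs.

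Id2 (chr12:25093799-25097140), needed for the development of natural killer and innate lymphoid cells and expressed in effector T cells, was abundant in all classes except the mCherry class. The Csf1r class held 1092 CPM (63993 UMIs) and 1051 CPM (48942 UMIs), the Cd3 class 1329 CPM (385 UMIs) and 1034 CPM (595 UMIs), and the neutrophil class 743 CPM (168 UMIs) and 1114 CPM (387 UMIs). In the adult library the intervals of these 3 classes overlapped, and in the young one they did not. The mCherry class held 101 CPM (1724 UMIs) and 87.0 CPM (1482 UMIs), 10.8-fold and 12.1-fold below the Csf1r class. That is 9.27% and 8.28% of the Csf1r-class level, against 7.64% and 5.19% for the macrophage markers, and subtraction removed 82.4% and 62.7% of it and left 19.3 and 34.3 CPM. The mCherry-class ratio of young over adult was 1.16 (1.09 to 1.25) as counted and 0.562 after subtraction.

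Id2 was nearly level between the libraries in the Csf1r class as a whole, at 1.04 (1.03 to 1.05), but not over its ranges. In cells with much Ly6c2 and Plac8 it stood at 1137 CPM in the young and 1473 CPM in the adult library (0.772), and in cells with little at 1043 and 789 CPM (1.32). Over the C1q bands young over adult went from 0.907 through 0.981 and 1.13 to 1.31. In the neutrophil class Id2 was 1.499-fold lower in the young library (1.25 to 1.81), just short of the call, which was reached under 5 of 10 alternatives, with ratios from 0.468 to 1.14, the last with cells of several rules kept. In the Cd3 class it was 1.29-fold higher in the young library (1.13 to 1.46). Young Cd3-class cells with CD8 RNA held 1855 CPM against 628 CPM in those without, 2.96-fold more (2.30 to 3.84), and adult cells held 1089 and 1015 CPM, 1.07-fold (0.888 to 1.29). Median depths were 8298 and 3370 UMIs in these young groups and 4492 and 4108 UMIs in the adult ones. Natural killer cells are known for high Id2, and their summed markers were higher in the young Cd3 class (2816 against 349 CPM). Of these sums Gzma held 2592 and 311 CPM and Klrb1c 65.6 and 1.74 CPM. Cd8a was also higher in the young Cd3 class, at 538 against 191 CPM. The part of depth and of natural killer cells in the ratios was not tested.

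Id3 (chr4:136143497-136145755), an E protein antagonist that restrains effector differentiation in T cells, was the 1 gene called in the mCherry class. The mCherry class held 4.58 CPM (3.62 to 5.72; 78 UMIs) in the young and 13.3 CPM (11.7 to 15.2; 227 UMIs) in the adult library, 2.91-fold lower in the young one (2.24 to 3.81). No young cell had 5 or more Id3 UMIs and 11 adult cells did, with maxima of 4 and 29 UMIs. The share of cells with a UMI was 14.5% and 18.5%. The call was lost after thinning to 2000 UMIs, at a ratio of 0.402, and the ratio was 0.192 after subtraction of macrophage RNA. The Csf1r class held more, 30.4 CPM (1783 UMIs) and 27.6 CPM (1284 UMIs), a ratio of 1.10 (1.03 to 1.19). Within that class the ratio was 1.41 in cells with little Ly6c2 and Plac8 and 0.818 in cells with much. The neutrophil class gave 2 UMIs and 1 UMI and the Cd3 class 2 and 11 UMIs.

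Between classes, 5 of the 9 genes were at least 2-fold lower in the mCherry class than in the Csf1r class in both libraries (Tgfb1, Tgfbr1, Id1, Id2 and Id3) and 0 were higher, against a background of 25.2% and 23.4% of 7880 genes. The Id3 call was lost in the adult library with at least 3 Csf1r UMIs (0.569 of the Csf1r-class level). Id1 was the 1 gene of 9 that was higher in the neutrophil class, against 8.42% of 7117 genes, and 0 were lower in both libraries, against 20.3%. The shares of adult cells with an Id1 UMI after thinning overlapped between these classes, as given above. In the Cd3 class 1 was higher (Smad7) and 3 were lower (Inhba, Tgfbr1 and Id1), against 11.1% and 9.09% of 8396 genes.

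Within the mCherry class, several of the genes were higher in cells with RNA of Cyr61, Ankrd1 and Sox9, known targets or partners of the growth regulator YAP. Cells with at least 3 UMIs of these 3 genes (221 young and 238 adult cells) were compared with cells that had none (155 and 194 cells). Smad7 was at 30.8 against 7.10 CPM in the young and at 40.4 against 3.15 CPM in the adult library, 4.34-fold (2.83 to 7.01) and 12.8-fold (7.42 to 24.3) higher. Inhba was at 108 against 30.3 CPM and 137 against 48.8 CPM, 3.58-fold and 2.80-fold higher, and Tgfbr2 at 13.8 against 2.58 CPM and 19.7 against 4.13 CPM, 5.35-fold and 4.79-fold higher. Tgfb1 and Id2 went the other way, at 0.645 and 0.815 for Tgfb1 and 0.584 and 0.642 for Id2. The cells with these RNAs were deeper, with medians of 59500 and 47940 UMIs against 18380 and 19250, and the part of depth in these ratios was not tested. Over the whole mCherry class, subtraction of macrophage RNA removed 40.4% and 34.3% of the Tgfb1 UMIs and 82.4% and 62.7% of the Id2 UMIs. No subtraction was made within this split, and the part of macrophage RNA in its ratios was not tested.

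**Figure D5:**
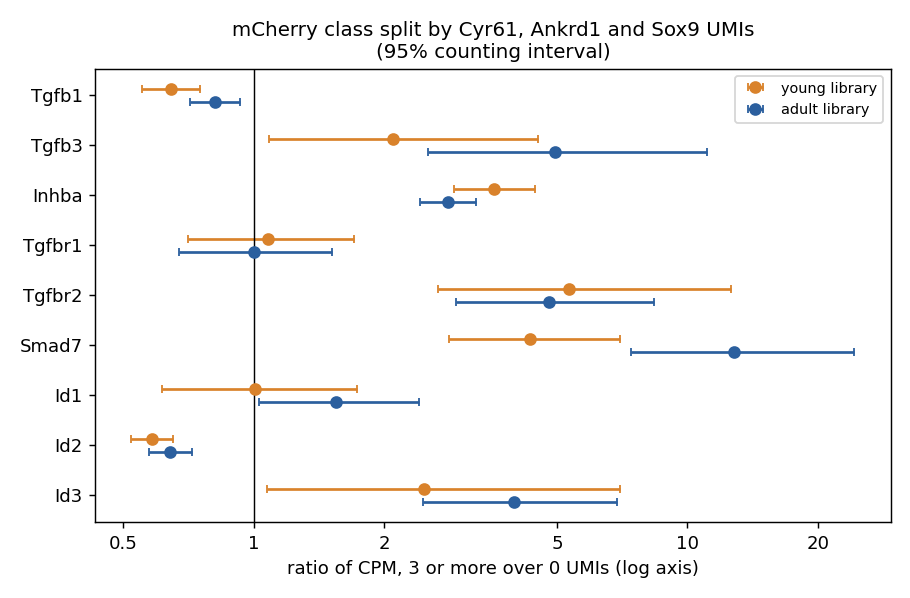
Ratio of CPM, on a log axis with 95% counting intervals, between mCherry-class cells with at least 3 UMIs of Cyr61, Ankrd1 and Sox9 and cells with none. Smad7, Tgfbr2, Inhba, Tgfb3 and Id3 lie to the right of 1 and Tgfb1 and Id2 to the left in both libraries.

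The wider pathway was read from 6 lists of 100 other genes, all found in the files: latency and activation, activin and BMP ligands and antagonists, receptors, SMADs and their regulators, TGF beta target genes, and partners of the ID proteins. In the Csf1r class 37 were measured, 2 higher and 6 lower in the young library, with a median log2 ratio of -0.05 against 0.04 over all genes. Of all genes measured in that class, 3.39% were higher and 2.5% lower. Thbs1, whose product thrombospondin 1 can activate latent TGF beta, was at 436 and 260 CPM (1.68-fold higher, 1.64 to 1.71), and Acvrl1, the receptor ALK1, at 128 and 67.1 CPM (1.91-fold higher, 1.83 to 1.99). Fn1 (fibronectin) was at 340 and 915 CPM, 2.69-fold lower in the young library (2.65 to 2.74), and the collagen gene Col3a1 at 0.375 and 10.0 CPM, while its mCherry-class level was 46.3 and 114 CPM. Pmepa1, a TGF beta-induced inhibitor of SMAD signalling, was at 70.2 and 112 CPM (1.60-fold lower), the ligand gene Gdf3 at 2.24 and 18.7 CPM (8.38-fold lower), Plau (urokinase) at 8.63 and 16.0 CPM and Hes1 at 7.92 and 16.7 CPM. Of 10 measured target genes in the Csf1r class, 0 were higher and 2 lower, and the other 8, among them Tgfbi at 2255 and 2793 CPM and Junb at 1283 and 1333 CPM, were within the limits. The SMAD list gave 0 higher and 1 lower of 10.

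In the mCherry class 46 listed genes were measured, 3 higher and 2 lower, with a median of -0.04 against 0.03. Of all genes measured in that class, 4.27% were higher and 0.933% lower. Thbs1 was at 49.2 and 25.7 CPM (1.92-fold higher, 1.71 to 2.16), Acvrl1 at 10.3 and 3.82 CPM (2.69-fold) and the BMP antagonist gene Grem1 at 20.8 and 12.4 CPM (1.67-fold). Col3a1 was 2.46-fold lower (2.27 to 2.68), and Fn1, at 107 and 173 CPM, 1.617-fold lower. Thbs1 and Acvrl1 differed in the same direction and Fn1 and Col3a1 in the other in both large classes. Macrophage markers in the mCherry class were at a median of 7.64% (6.62 to 8.66%) and 5.19% (4.91 to 6.615%) of their Csf1r-class level. The Csf1r class held Acvrl1 at 128 and 67.1 CPM, and no level after subtraction was computed for these genes. The part of macrophage RNA in their mCherry-class ratios was not tested. The 12 measured SMADs and regulators were all within 1.5-fold or had intervals that included 1.

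In the neutrophil class 34 were measured, 2 higher and 3 lower, with a median of -0.18 against 0.11. Of all genes measured in that class, 5.56% were higher and 3.03% lower. The decoy receptor gene Bambi (66.3 and 25.9 CPM) and the integrin gene Itgb1 (84.0 and 37.4 CPM) were higher in the young library. These calls rested on 15 and 9 UMIs of Bambi (ratio interval 1.05 to 6.64) and 19 and 13 of Itgb1 (1.05 to 4.95). Junb was at 1897 and 3229 CPM, 1.70-fold lower (1.52 to 1.91), and Snai1 at 4.42 and 34.5 CPM (1 and 12 UMIs). Cx3cr1 was at 0 UMIs in the young and 210.1 CPM (73 UMIs) in the adult library. In the Cd3 class 34 were measured, 0 higher and 9 lower, with a median of -0.66 against -0.09. Of all genes measured in that class, 4.22% were higher and 6.78% lower. Of the 11 measured target genes of the Cd3 class 7 were lower in the young library, with a median of -1.06. Itgae, the CD103 integrin of tissue-resident T cells, was at 17.3 and 103 CPM, 5.94-fold lower (2.41 to 19.0), Cdkn1a at 110 and 240 CPM, and Tgm2 at 58.7 and 182 CPM. Furin, a protease that cleaves the TGF beta propeptide, was at 58.7 and 420 CPM, 7.16-fold lower (4.38 to 12.5). Tgfbi and Fn1, at 72.5 and 363 CPM (21 and 209 UMIs) and at 6.90 and 69.5 CPM (2 and 40 UMIs), are also macrophage genes. In the Csf1r class Tgm2 was at 1179 and 1257 CPM, Cdkn1a at 823 and 789 CPM and Furin at 258 and 324 CPM, while Itgae was at 0.358 and 0.344 CPM. The macrophage markers of the adult Cd3 class were at a median of 11.04% of their Csf1r-class level against 1.58% in the young one. The part of macrophage RNA in these ratios and counts was not tested.

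The genes whose levels ran most like each of the 10 over the 8 values of 4 classes in 2 libraries were listed by Pearson r of log2(CPM + 5), as a description of values that share 2 libraries. Tgfb1 ran most like Bcl2a1d (0.994), Arpc5 (0.983) and Ubl3 (0.983). Inhba ran most like Gng12 (0.988), Gpr137b (0.987) and Tctex1d2 (0.982), and Tgfbr1 like Pilrb1 (0.996), Taldo1 (0.992) and Pnp (0.985). Tgfbr2 ran most like Fyn (0.986), Sugt1 (0.980) and Ldb1 (0.979), and Smad7 like Tnfrsf18 (0.993), Gstp3 (0.983) and Spn (0.983). Id1 ran most like Gm46224 (0.988), Ndel1 (0.987) and H3f3b (0.985), and Id2 like Arhgap31 (0.993), Crlf2 (0.988) and Cd52 (0.986). Among the 10 genes themselves the closest pairs were Tgfb1 with Id2 (0.969) and Tgfbr1 with Id1 (0.899).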

How the data were processed

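The authors deposited sparse matrices of whole UMI counts, 1 for each of 2 libraries, with no scaling, per the file headers. Cell Ranger 3.0.2 and the build mm10 come from the submitters' processing notes, and the gene annotation is not given in the sources used here. Sample titles gave the ages. Barcodes below 200 genes or above 10% mitochondrial UMIs were dropped. No doublet caller was run and doublets are taken as present. An alternative without the deepest 6% of cells of each class stood in for their removal.

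UMIs were summed by class and library and scaled to CPM. Level intervals are exact Poisson, ratio intervals conditional binomial and share intervals exact binomial (Clopper-Pearson), at 95%. A count of 0 allows up to 3 counts. A gene was measured at 10 CPM or more in 1 library and called at 1.5-fold (between classes 2-fold in both libraries) with an interval that excluded 1. Log2 ratios used a pseudocount of 5 CPM.

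The genes, lists and rules were chosen with earlier results of these data known. Named genes were the 10 in all classes, up to 4 called genes with the largest ratios of each list and class, or else up to 2 with the highest CPM, and the 3 genes most like each of the 10 among genes at 50 CPM or more. Other genes named within the lists, the cells with many Inhba, Id1 or Id3 UMIs and 3 alternatives (subtraction of macrophage RNA, equal weight for the 4 C1q bands, and removal of barcodes found in both libraries) were chosen after their values were seen. The other alternatives covered the cell filter, class limits, scaling, thinning, the minimum level and the fold.

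The call rule was tried on class sums simulated with counting error alone, with no spread between cells or libraries. There it called 126 of 5071 unchanged genes in the neutrophil class and 182 of 7520 in the Cd3 class, which hold few cells. In the mCherry and Csf1r classes it called 0. Of 200 changed genes it recovered 73.0% in the neutrophil, 75.5% in the Cd3 and 100% in the mCherry and Csf1r classes. Since UMIs of some genes lay in few cells, this does not measure false calls in the data. Positions and features are from GENCODE M21 and sequences from RefSeq on GRCm38.p6. Python 3.11.15, numpy 2.4.6, scipy 1.17.1, pandas 2.3.3 and matplotlib 3.10.9 were used.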

Additional observations from a re-analysis of the deposited data

Results flagged for a closer look

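Inhba differed between the libraries in opposite directions in different classes. Young over adult was 2.53 in the neutrophil class, while it was 0.827 in the mCherry class, 0.818 in the Csf1r class and 0.124 in the Cd3 class, the last from 1 young and 16 adult UMIs. Id3 stood at 1.10 in the Csf1r class and at 0.344 in the mCherry class. In each case the counting interval of one class lay above 1 and that of the other below it. The Id3 direction was not the same throughout the Csf1r class. It was 1.41 (1.26 to 1.57) in cells with little Ly6c2 and Plac8 and 0.818 (0.743 to 0.900) in cells with much. With 1 library per age the difference between classes was not tested.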

How the results depend on the processing

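With 1 library per age no replicate could be left out. No paired analysis was possible because each age has a single library. Of 312 values of the young over adult ratio under the alternatives, 273 moved by less than their counting interval, 37 moved further and 2 of called ratios turned: Id1 in the neutrophil class to 1.47 after thinning to 2000 UMIs, and Inhba in the Cd3 class to 6.26 with cells of several rules kept. Among the other values, 15 of ratios that were not called crossed 1, among them Id2 in the mCherry class (0.562 after subtraction of macrophage RNA), Id2 in the neutrophil class (1.14 with cells of several rules kept), and Tgfb1 in the mCherry class (1.15 after thinning to 2000 UMIs) and the Cd3 class (0.852 with cells of several rules kept). Of 120 ratios between classes, 90 moved by less than their interval, 30 further, 0 of the called ones turned and 5 values of ratios that were not called crossed 1. The count of genes called in the mCherry class was 1, and was 0 after thinning to 2000 UMIs, 0 with a minimum of 50 CPM and 2 after subtraction of macrophage RNA. In the Csf1r class it was 3, was 1 at 2-fold, and was 2 with cells of several rules kept, at least 3 Csf1r UMIs, equal weight for 4 bands of C1q share, no barcodes found in both libraries or a minimum of 50 CPM. In the Cd3 class it was 1, and was 2 at 5% mitochondrial UMIs, 2 with cells of several rules kept and 0 with a minimum of 50 CPM. In the neutrophil class it was 2, and was 3 with S100a8 and S100a9 at 3% or more of UMIs, with the median log2 ratio set to 0, with scaling without mitochondrial, ribosomal, haemoglobin, S100a8 and S100a9 UMIs, and without the deepest 6% of cells. Without a minimum level the count of pathway list genes called went from 5 to 10 in the mCherry class and from 8 to 21 in the Csf1r class. Of 52 shares of cells with a UMI, 44 moved past their interval when cells were thinned to 4000 in place of 2000 UMIs. The cause of these moves was not tested. Depth limits the small classes most: a single UMI decided several Cd3-class and neutrophil-class values, and Tgfb2 was below what could be compared in any class.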

Other observations

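A further group was cells with at least 3 UMIs of Ccr7, no Cd3 UMI and fewer than 2 mCherry UMIs. The group holds the marker of mature dendritic cells that gave it its limit. Cells of the Csf1r and neutrophil classes were not removed from it, so it can share cells with them. It numbered 52 young and 53 adult cells, with median depths of 11880 and 12580 UMIs. Inhba was at 93.0 CPM in the young library (57 UMIs) and 35.8 CPM in the adult one (24 UMIs), 2.60-fold higher in the young library (1.59 to 4.37). Id1 went the other way, at 13.1 CPM (8 UMIs) and 52.2 CPM (35 UMIs), a ratio of 0.250 (0.1001 to 0.548). Id2 was at 1424 and 1176 CPM, and Tgfb1 at 148 and 197 CPM. These are counts of few cells from 1 library per age and the differences were not tested.

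In the mCherry class, cells with at least 5 Inhba UMIs (124 young and 132 adult cells) were compared with cells without any (165 and 204 cells). The immediate early gene Egr1 was 8.61-fold higher in the young and 8.31-fold higher in the adult library, the transcription factor gene Sox9 7.53-fold and 8.37-fold, and Ankrd1 6.98-fold and 3.36-fold. The Inhba-high cells were also deeper, with medians of 70130 and 58800 UMIs against 17360 and 19250, and the part of depth in these ratios was not tested.

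Cells with and without molecules of Tgfb3 and Id1 were compared in the same way, each with cells that lacked that gene. Csf1r-class cells with a Tgfb3 UMI had 1.71-fold and 2.49-fold more of the tetraspanin gene Cd81 and 1.42-fold and 1.78-fold more C1qc, and were deeper (13430 and 13580 against 10070 and 9968 UMIs). Those with at least 3 Id1 UMIs had less Cxcl3 (0.414 and 0.417 of the level in cells without Id1) and less of the platelet factor gene Pf4 (0.474 and 0.392). Some genes with large differences in the young library did not keep them in the adult one. Ccl24, furthest above in the young Id1 comparison at 4.39-fold, stood at 0.818 in the adult library. Ccl8, furthest above in the young Tgfb3 comparison at 2.145-fold, was 1.054-fold higher in the adult library. The limits on UMIs were chosen after the data were seen.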
